A study of Mus musculus with 6 samples.

Results

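The genes of liver sinusoidal endothelial cells were followed in livers of obese Mettl14f/f mice with and without Cre. The 10 genes were taken by their symbols and not by a cutoff on a measured value, though earlier results of these data were known. The list makes up 10 of 18453 genes with an assigned fragment. They fall into the endocytic and lectin-type receptors Stab1, Stab2, Fcgr2b, Clec4g and Lyve1, the zona pellucida domain protein Oit3, the VEGF receptors Kdr and Flt4, the adhesion molecule Pecam1 and the secreted ligand Bmp2. All 10 passed the filter on low counts and were among the 13431 genes tested.

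Both groups were Mettl14f/f males (C57BL/6J background), so the control livers carried the floxed alleles too. Mice were put on HFD at 8 weeks of age, the vector was given through the tail vein after 10 weeks of HFD, and liver RNA was taken 8 weeks after the vector. The AAV8-TBG-GFP livers (n = 3) are labelled WT and the AAV8-TBG-Cre livers (n = 3) METTL14 KO. In both vectors, which derive from adeno-associated virus, the thyroxine-binding globulin (TBG) promoter is active in hepatocytes, so the cells that express the genes below were not the cells at which Cre was aimed. The comparison asks whether their RNA differed in whole liver after Mettl14, a subunit of the m6A RNA methyltransferase, was targeted in the neighbouring hepatocytes. The labels number the livers within each group and do not state that each came from a separate mouse, so a p-value here measures the spread between these livers.

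Sinusoidal endothelial cells line the capillaries of the liver lobule. They have open pores and no continuous basement membrane, and they clear waste macromolecules and immune complexes from portal blood through scavenger and Fc receptors. They also send signals to hepatocytes. BMP ligands from these cells act on hepatocyte receptors and drive hepcidin, the hormone that limits iron release into blood, and VEGF from hepatocytes keeps the endothelium in its porous state. In injured liver these cells can lose their pores and take on a capillary-like state in which CD34 appears.

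Sequences around an annotated start of the genes are shown because the data below bear on genes that move together or apart. The RefSeq promoter table (GRCm38.p6, 250 bases before to 50 after a start) held 6 of the 10 genes, Stab1, Stab2, Fcgr2b, Clec4g, Kdr and Flt4. The gene called lower (Stab2), genes whose levels lay close to the median of the 10 (Clec4g and Kdr) and the gene farthest from it (Flt4) are printed 5′ to 3′ on the gene's strand, with matches to the searched motifs in capitals.
Stab2, chr10:87007893-87008192, minus strand: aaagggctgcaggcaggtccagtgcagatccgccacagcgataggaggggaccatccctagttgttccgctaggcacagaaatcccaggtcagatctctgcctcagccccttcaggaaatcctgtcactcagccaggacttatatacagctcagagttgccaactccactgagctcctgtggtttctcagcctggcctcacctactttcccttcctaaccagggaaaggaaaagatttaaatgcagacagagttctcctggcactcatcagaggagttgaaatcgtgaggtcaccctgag
Clec4g, chr8:3720602-3720901, minus strand: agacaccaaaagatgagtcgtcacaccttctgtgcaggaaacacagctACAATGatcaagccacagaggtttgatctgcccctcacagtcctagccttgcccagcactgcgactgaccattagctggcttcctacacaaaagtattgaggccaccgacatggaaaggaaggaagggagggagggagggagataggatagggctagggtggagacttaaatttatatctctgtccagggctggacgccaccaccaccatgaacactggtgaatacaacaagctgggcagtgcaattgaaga
Kdr, chr5:75978406-75978705, minus strand: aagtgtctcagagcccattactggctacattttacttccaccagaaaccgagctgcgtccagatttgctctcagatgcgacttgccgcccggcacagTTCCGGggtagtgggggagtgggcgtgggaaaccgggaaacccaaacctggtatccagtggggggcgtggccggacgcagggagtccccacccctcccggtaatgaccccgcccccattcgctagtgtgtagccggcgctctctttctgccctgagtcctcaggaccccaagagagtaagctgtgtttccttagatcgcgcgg
Flt4, chr11:49609429-49609728, plus strand: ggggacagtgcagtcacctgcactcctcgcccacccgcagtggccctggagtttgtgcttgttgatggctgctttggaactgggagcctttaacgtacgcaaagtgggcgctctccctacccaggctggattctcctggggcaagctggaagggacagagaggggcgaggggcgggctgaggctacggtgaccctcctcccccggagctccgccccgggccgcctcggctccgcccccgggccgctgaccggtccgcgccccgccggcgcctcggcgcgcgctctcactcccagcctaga
Motifs of factors known in endothelium were searched on both strands, AGATAA for GATA factors, CCGGAA and ACAGGAA for ETS factors and ACAATG for SOX factors. ACAATG stood in Clec4g on the gene's own strand, as printed, 202 bases before the start. CCGGAA stood in Kdr on the strand opposite to the gene's, so that the print shows its reverse complement, 153 bases before the start. The Kdr window lies inside the annotated span of the gene (chr5:75932827-75979072), so its start is an internal one and the match is not upstream of the gene. ACAGGAA stood in Stab1 on the strand opposite to the gene's, 13 bases before the start, and no motif of the 4 was found in Stab2, Fcgr2b or Flt4. Of 32851 promoters in the table, 11.2% held AGATAA, 14.9% CCGGAA, 8.67% ACAGGAA and 12.6% ACAATG. The Flt4 window was 70.3% G and C, against a median of 52.7% over the table.

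Expected counts per library summed to between 20356459 and 21010524, and the 10 genes held between 148 and 1230 counts each in every library. Levels are given as CPM, expected counts scaled to a common library total (counts per 1e+06 after TMM), and differences as log2 fold changes from the edgeR quasi-likelihood test of AAV8-TBG-Cre against AAV8-TBG-GFP. A gene was called where the unadjusted p was under 0.05 and the fold reached 1.2. A second, adjusted rule required a p under 0.05 after Benjamini-Hochberg adjustment. By the first rule 8.41% of all genes were called lower and 12.0% higher, and 0.931% passed the adjusted rule. Mettl14 stood at 6.30, 6.43 and 5.81 CPM in AAV8-TBG-GFP livers and at 4.96, 5.38 and 4.86 CPM in AAV8-TBG-Cre livers. These groups did not overlap in CPM, but the difference of -0.29 (SE 0.15) did not pass the test (edgeR adjusted p = 0.337). On the FPKM scale the groups overlapped, at 2.31, 2.31 and 2.01 in AAV8-TBG-GFP livers and 1.92, 2.40 and 1.82 in AAV8-TBG-Cre livers. The labels name each library by 2 digits (AAV8-TBG-GFP replicates 1 and 2, AAV8-TBG-Cre replicate 1) or by 4 digits (AAV8-TBG-GFP replicate 3, AAV8-TBG-Cre replicates 2 and 3) and do not say what the form means. AAV8-TBG-GFP replicate 3 stood apart from its group for most of these genes, so the calls of the 10 genes and of the endothelial lists are also given without it. That liver was picked from the values of the 10 genes themselves. Calls without it show how far the counts depend on 1 liver and are not a separate test. The lists of other genes leave out the 10 genes.

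Of the 10 sinusoidal genes, 9 had a log2 fold change below 0 in AAV8-TBG-Cre livers, but only Stab2 was called lower and none was called higher. That count of 1 in 10 stands beside the 8.41% of all genes called lower. None of the 10 passed the adjusted rule in edgeR, where Stab2 alone had an unadjusted p under 0.05, or in DESeq2, where Stab2 and Oit3 had one. Their log2 fold changes ran from -0.52 to 0.09 with a median of -0.25, while the median over all tested genes was -0.01. Where a value was lower, whole-liver RNA cannot tell apart fewer endothelial cells, less of these RNAs per cell and more RNA from other cells. None of these was tested.

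Stab2 (chr10:86841194-87008038), the hyaluronan-clearing scavenger receptor stabilin-2, stood at 52.3, 50.7 and 44.4 CPM in AAV8-TBG-GFP livers and at 40.2, 39.5 and 38.4 CPM in AAV8-TBG-Cre livers. All 3 AAV8-TBG-Cre livers were below all 3 AAV8-TBG-GFP livers. The log2 fold change was -0.32 (95% interval -0.55 to -0.09), with an unadjusted p of 0.0129 and an adjusted p of 0.135 in edgeR. Without AAV8-TBG-GFP replicate 1 the call was lost (log2 fold change -0.28, edgeR unadjusted p = 0.0547), and no other single liver decided it. On the FPKM scale the Stab2 groups overlapped.

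Stab1 (chr14:31139017-31168651), its relative stabilin-1, stood at 49.3, 54.4 and 30.6 CPM in AAV8-TBG-GFP livers and at 41.6, 50.5 and 37.0 CPM in AAV8-TBG-Cre livers. Replicate 3 was the lowest of all 6 and the groups overlapped. The log2 fold change of -0.06 had an interval from -0.57 to 0.45 that spans both directions, and its sign turned with the scaling, to 0.01 with upper quartile normalization and to 0.12 on the log2(FPKM + 1) scale.

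Fcgr2b (chr1:170960558-170976071), the inhibitory Fc receptor that takes up small immune complexes, stood at 32.0, 34.7 and 18.3 CPM in AAV8-TBG-GFP livers and at 25.1, 27.8 and 19.9 CPM in AAV8-TBG-Cre livers. AAV8-TBG-GFP replicate 3 was the lowest of the 6, and the other AAV8-TBG-GFP livers lay above every AAV8-TBG-Cre liver (log2 fold change -0.22, SE 0.24). Clec4g (chr8:3707066-3720695), the lectin LSECtin, stood at 43.8, 44.1 and 23.1 CPM in AAV8-TBG-GFP livers and at 33.0, 31.6 and 27.6 CPM in AAV8-TBG-Cre livers. Again replicate 3 was lowest and the rest of its group lay above the AAV8-TBG-Cre livers (log2 fold change -0.27, SE 0.24).

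Oit3 (chr10:59422960-59441779), which encodes a secreted protein, stood at 28.7, 25.1 and 15.2 CPM in AAV8-TBG-GFP livers and at 18.9, 13.9 and 15.5 CPM in AAV8-TBG-Cre livers. Its log2 fold change of -0.52 was the lowest of the 10, with an interval from -1.06 to 0.03 (edgeR unadjusted p = 0.0613). It was called lower without AAV8-TBG-Cre replicate 1 (log2 fold change -0.65), without AAV8-TBG-GFP replicate 3 (-0.75) and with DESeq2 (unadjusted p = 0.0491). Lyve1 (chr7:110850607-110862953), a hyaluronan receptor of sinusoidal and lymphatic endothelium, stood at 9.10, 7.70 and 8.27 CPM in AAV8-TBG-GFP livers and at 7.11, 7.19 and 7.12 CPM in AAV8-TBG-Cre livers. The groups did not overlap, yet the difference of -0.23 did not pass the test (edgeR unadjusted p = 0.139). Its AAV8-TBG-Cre livers had an SD of 0.0415 CPM, on counts of 148 to 175.

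Kdr (chr5:75932827-75979072), VEGF receptor 2 and the main signalling receptor for VEGF-A, stood at 30.5, 36.6 and 18.4 CPM in AAV8-TBG-GFP livers and at 23.0, 22.0 and 19.4 CPM in AAV8-TBG-Cre livers. The groups overlapped through AAV8-TBG-GFP replicate 3 alone (log2 fold change -0.41, interval -0.95 to 0.13). Flt4 (chr11:49609679-49652739), VEGF receptor 3 for VEGF-C and VEGF-D, stood at 37.7, 34.2 and 18.2 CPM in AAV8-TBG-GFP livers and at 51.4, 24.2 and 20.3 CPM in AAV8-TBG-Cre livers. AAV8-TBG-Cre replicate 1 was the highest of the 6. The other AAV8-TBG-Cre livers lay between the lowest, AAV8-TBG-GFP replicate 3, and the other AAV8-TBG-GFP livers. Flt4 had the widest interval of the 10, from -0.82 to 1.00 around 0.09, and its sign turned to -0.43 without AAV8-TBG-Cre replicate 1 and to -0.18 without AAV8-TBG-GFP replicate 3.

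Pecam1 (chr11:106654213-106715281), the junctional adhesion molecule CD31, stood at 23.2, 21.6 and 12.8 CPM in AAV8-TBG-GFP livers and at 19.0, 14.9 and 12.7 CPM in AAV8-TBG-Cre livers. Here AAV8-TBG-Cre replicate 3 matched AAV8-TBG-GFP replicate 3 at the bottom, and the log2 fold change of -0.30 (SE 0.24) did not pass the test. Bmp2 (chr2:133552159-133562896), the endothelial ligand of the hepcidin pathway, stood at 16.6, 16.6 and 14.8 CPM in AAV8-TBG-GFP livers and at 13.3, 14.2 and 14.0 CPM in AAV8-TBG-Cre livers. The groups did not overlap, and the difference of -0.21 had an interval from -0.46 to 0.04 (edgeR unadjusted p = 0.0911). In CPM, complete separation of the AAV8-TBG-Cre livers below the AAV8-TBG-GFP livers was seen for 3 of the 10 genes, Stab2, Lyve1 and Bmp2, and for 13.0% of all genes. An exact two-sided permutation test of log2 CPM gives each of the 3 a p of 0.1, the smallest that 3 against 3 livers allow. On the FPKM scale the groups overlapped for all 10 genes, so the separation depended on the scaling.

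**Figure D1:**
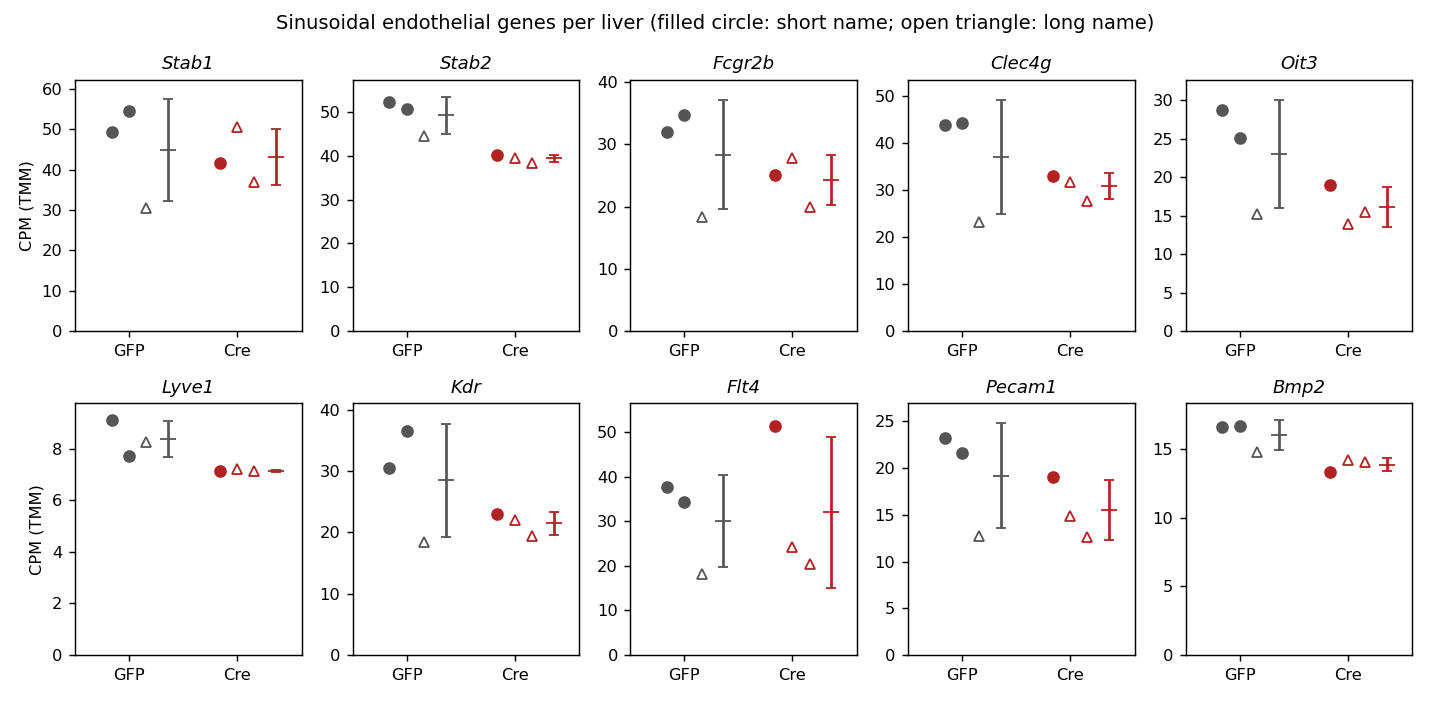
CPM of each of the 10 sinusoidal endothelial genes in AAV8-TBG-GFP (GFP, grey) and AAV8-TBG-Cre (Cre, red) livers, 1 point per liver in replicate order, with the mean and SD (n = 3) to the right; filled circles are libraries with a 2-digit name and open triangles libraries with a 4-digit name. The open grey triangle, AAV8-TBG-GFP replicate 3, is the lowest AAV8-TBG-GFP liver for 9 of the 10 genes, and Stab2, Lyve1 and Bmp2 are the genes whose groups do not overlap in CPM.

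Compared per length, the order of the levels was led by Clec4g at 28.6 ± 9.90 FPKM (SD, n = 3) in AAV8-TBG-GFP livers, followed by Fcgr2b at 19.0 ± 6.29 and Oit3 at 7.98 ± 2.61. Clec4g and Fcgr2b overlapped in range, whereas every AAV8-TBG-GFP liver had more FPKM of Fcgr2b than any had of Oit3. Pecam1 (5.61), Stab2 (5.61), Stab1 (5.22), Kdr (4.88), Flt4 (4.80) and Bmp2 (4.20) followed within overlapping ranges. Lyve1 was the lowest at 3.01 ± 0.301 FPKM and did not overlap Bmp2. In AAV8-TBG-Cre livers the same genes held the first 3 and the last 2 places, and Stab1 and Flt4 moved ahead of Pecam1 and Stab2 among close neighbours.

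AAV8-TBG-GFP replicate 3 was the lowest AAV8-TBG-GFP liver for 9 of the 10 genes and the lowest of all 6 livers for 5. The exception was Lyve1, for which replicate 2 was lowest. Its difference from the mean of its group's other livers on the log2 CPM scale ran from -0.98 (Flt4) to -0.76 (Stab1) for 7 genes, and was -0.21 for Stab2, -0.17 for Bmp2 and -0.02 for Lyve1. Summed over the 10 genes, AAV8-TBG-GFP livers held 323, 326 and 204 CPM and AAV8-TBG-Cre livers 273, 246 and 212 CPM. Without AAV8-TBG-GFP replicate 3, 6 of the 10 genes were called lower in AAV8-TBG-Cre livers, beside 7.88% of all genes. Because that liver was picked for its low values in these genes, leaving it out lowers their fold changes by construction. The share of all genes is therefore not a like comparison. The 6 genes were Kdr (-0.65), Oit3 (-0.75), Clec4g (-0.53), Stab2 (-0.40), Pecam1 (-0.54) and Fcgr2b (-0.47). In that fit all 10 genes were below 0, and none passed the adjusted rule (smallest edgeR adjusted p = 0.134, Kdr). Without AAV8-TBG-GFP replicate 1 no member was called lower, beside 5.35% of all genes, and without AAV8-TBG-Cre replicate 1 Stab2 and Oit3 were, beside 12.5%. The number of sinusoidal genes called therefore ran from 0 to 6 with the choice of livers.

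**Figure D2:**
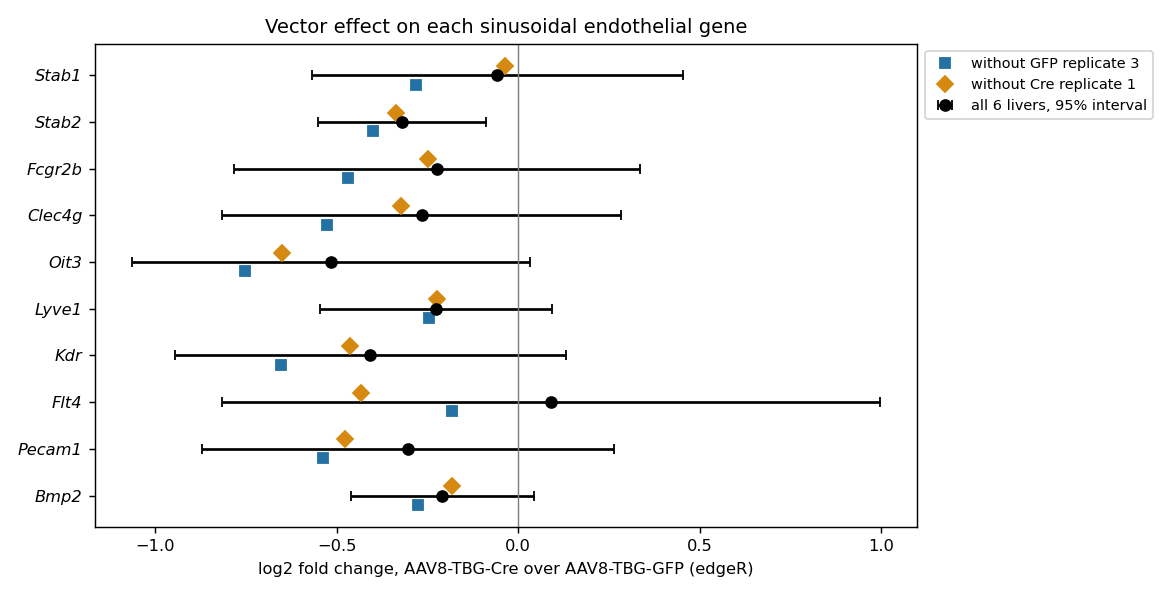
Log2 fold change of AAV8-TBG-Cre over AAV8-TBG-GFP for each of the 10 genes from edgeR, with its 95% interval over all 6 livers (black circles), without AAV8-TBG-GFP replicate 3 (blue squares) and without AAV8-TBG-Cre replicate 1 (orange diamonds). Only the Stab2 interval, -0.55 to -0.09, leaves out 0. Each of the 10 estimates lies lower without AAV8-TBG-GFP replicate 3, a liver picked for its low values in these genes.

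The form of the library name moved with several of these genes. This comparison was added after the values were seen. With the vector in the model, 5 of the 10 genes were called lower in libraries with a 4-digit name than in those with a 2-digit name, beside 7.79% of all genes. The 4-digit libraries include AAV8-TBG-GFP replicate 3, the liver picked for its low values in these genes. The share of all genes is therefore not a like comparison. Flt4 differed by -1.10 (SE 0.11, edgeR adjusted p = 0.0184) and passed the adjusted rule, which 1.39% of all genes passed. Pecam1 differed by -0.63, Oit3 by -0.59, Clec4g by -0.54 and Kdr by -0.51, each on the unadjusted rule. Stab2 (-0.13), Bmp2 (-0.04) and Lyve1 (-0.01) lay close to 0 and were not called. Without AAV8-TBG-GFP replicate 3 the count fell to 2 genes, Flt4 and Pecam1, beside 6.63% of all genes. It rose to 7, with Stab1 and Fcgr2b added, without AAV8-TBG-Cre replicate 1 (beside 4.96%) and without AAV8-TBG-Cre replicate 2 (beside 8.35%). Flt4 no longer passed the adjusted rule without AAV8-TBG-GFP replicate 2, AAV8-TBG-GFP replicate 3 or AAV8-TBG-Cre replicate 1 (edgeR adjusted p from 0.0557 to 0.164).

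Within each form the vectors could be compared as values only. Among the 2-digit libraries, AAV8-TBG-Cre replicate 1 was below the mean of the AAV8-TBG-GFP livers for 9 of the 10 genes, with differences from -0.53 (Kdr) to -0.23 (Pecam1) on the log2 CPM scale, and above it by 0.52 for Flt4. Among the 4-digit libraries, the mean of the AAV8-TBG-Cre livers was above AAV8-TBG-GFP replicate 3 for 6 genes, led by Stab1 at 0.50, although for Pecam1 AAV8-TBG-Cre replicate 3 was just below it. The mean was below it for Stab2 (-0.19), Lyve1 (-0.21), Bmp2 (-0.06) and Oit3 (-0.05), and for Oit3 AAV8-TBG-Cre replicate 3 was just above it. With the form as a covariate, Stab2 was still called lower (-0.27, edgeR unadjusted p = 0.0184), and Flt4 was called higher (0.41, edgeR unadjusted p = 0.00777), beside 10.6% of all genes called higher.

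**Figure D3:**
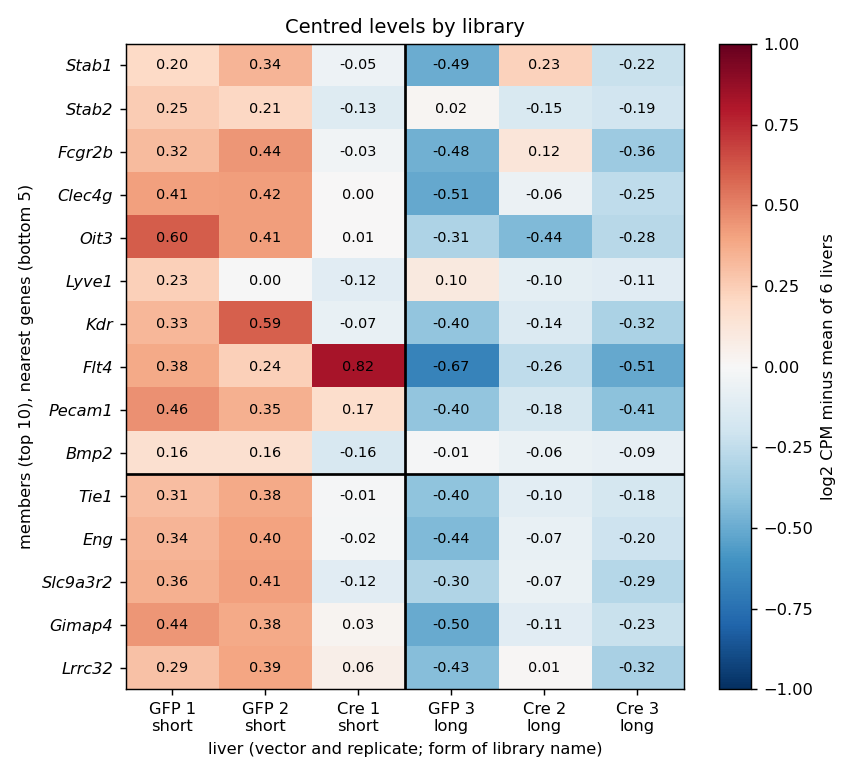
Log2 CPM minus the mean of the 6 livers for the 10 sinusoidal genes and the 5 genes nearest to their median profile, with 2-digit libraries left and 4-digit libraries right of the vertical line. AAV8-TBG-GFP replicates 1 and 2 are above the mean except replicate 2 for Lyve1, AAV8-TBG-GFP replicate 3 is below it for all but Stab2 and Lyve1, and Flt4 departs from the rest at 0.82 in AAV8-TBG-Cre replicate 1.

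The median profile of the 10 genes over the livers, centred on their mean log2 CPM, was 0.32, 0.35 and -0.40 in AAV8-TBG-GFP livers and -0.04, -0.12 and -0.27 in AAV8-TBG-Cre livers, each in replicate order. Clec4g lay closest to it, with a root mean square difference of 0.07 over 6 livers, and Flt4 farthest at 0.39. Among 12356 other genes with a mean of at least 1 CPM, the nearest were Tie1 (0.04) and Eng (0.04), the endothelial receptors TIE1 and endoglin. Slc9a3r2 (0.06), a scaffold protein, Gimap4 (0.07), a GTPase of the GIMAP family, and Lrrc32 (0.07), the carrier of latent TGF-beta on cell surfaces, came next. Tie1 stood at 16.7, 17.5 and 10.2 CPM in AAV8-TBG-GFP livers and at 13.4, 12.5 and 11.9 CPM in AAV8-TBG-Cre livers. Of the 20 nearest genes, 5 were on the lists of endothelial genes used here.

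Other endothelial genes gave few calls. None of 10 further sinusoidal genes was called (median log2 fold change -0.15), nor any of 20 pan-endothelial genes (median -0.20, of which 17 were below 0), and none of the 30 had an unadjusted p under 0.05 in edgeR or DESeq2. Cdh5, the endothelial cadherin, had a log2 fold change of -0.11, Gpr182, a sinusoidal chemokine-binding receptor, of -0.41, and Gata4, the factor that sets the sinusoidal programme, of -0.13. Without AAV8-TBG-GFP replicate 3, 4 of the 10 and 7 of the 20 were called lower, beside 7.88% of all genes. In that fit the log2 fold changes were -0.34 for Cdh5, -0.74 for Gpr182 and -0.29 for Gata4. The liver left out was picked for low values in the 10 sinusoidal genes, a profile that several of these genes share. The share of all genes is therefore not a like comparison here either. In 4-digit against 2-digit libraries, 13 of the 20 pan-endothelial genes were called lower, with a median of -0.51, beside 7.79% of all genes. The 4-digit libraries include AAV8-TBG-GFP replicate 3, so this share is not a like comparison. The count of pan-endothelial genes ran from 2 without AAV8-TBG-GFP replicate 3 (beside 6.63% of all genes) to 15 without AAV8-TBG-Cre replicate 1 (beside 4.96%). It was 6 without AAV8-TBG-GFP replicate 1 (beside 963 of 13738 genes) and 6 without AAV8-TBG-GFP replicate 2 (beside 769 of 13763). Of 9 zonation genes none was called or had an unadjusted p under 0.05 in either tool, Wnt2 of the central vein side standing at a log2 fold change of -0.43 (SE 0.40) and Rspo3, which sustains Wnt signals there, at -0.13 (SE 0.24). The same held for 4 flow-responsive genes, with Klf2, the shear stress factor, at 0.22 (SE 0.22). Without AAV8-TBG-GFP replicate 3, 1 zonation gene (Wnt2, -0.80) and 1 flow-responsive gene (Nos3, the endothelial nitric oxide synthase, -0.64) were called lower. In that fit 7.88% of all genes were called lower, and the median of the zonation genes moved from 0.08 to -0.22. Without AAV8-TBG-Cre replicate 1, 1 flow-responsive gene (Klf4, 1.15) was called higher, beside 2018 of 13678 genes.

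Of 11 tested VEGF and angiopoietin genes, 2 were called lower and none higher, beside 8.41% and 12.0% of all genes. Both were neuropilins, co-receptors that bind VEGF beside the receptor kinases. The count lower was 5 without AAV8-TBG-GFP replicate 3, the liver picked from the 10 genes, beside 7.88% of all genes. Nrp2 stood at 30.1, 24.6 and 30.9 CPM in AAV8-TBG-GFP livers and at 7.11, 10.1 and 10.8 CPM in AAV8-TBG-Cre livers. It fell by 1.61 on the log2 scale (SE 0.18, edgeR adjusted p = 0.0300), with no overlap. That adjusted call held without AAV8-TBG-Cre replicate 1 and was lost without any other single liver, with adjusted p from 0.0556 to 0.115 in edgeR. Nrp1 stood at 108, 103 and 116 CPM in AAV8-TBG-GFP livers and at 55.5, 71.8 and 76.6 CPM in AAV8-TBG-Cre livers, a change of -0.68 (SE 0.14) on the unadjusted rule (edgeR adjusted p = 0.0619). Neither neuropilin had its low value in AAV8-TBG-GFP replicate 3, unlike Kdr and Flt4. Vegfa, the hepatocyte ligand of Kdr, stood at a log2 fold change of -0.09 (SE 0.11). Counted per Flt4 count, Nrp2 was at 0.799, 0.718 and 1.70 in AAV8-TBG-GFP livers and at 0.138, 0.417 and 0.534 in AAV8-TBG-Cre livers, which did not overlap. Nrp1 per Kdr overlapped between the groups (exact permutation p = 0.5).

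The capillary-type and activation list held 9 tested genes, of which 3 were called higher and 1 lower, or 2 lower without AAV8-TBG-GFP replicate 3. Of all genes, 12.0% were called higher and 8.41% lower, or 7.88% lower without that liver. Cd34, the sialomucin of capillary endothelium and progenitor cells, stood at 2.34, 1.33 and 1.73 CPM in AAV8-TBG-GFP livers and at 4.29, 9.53 and 3.61 CPM in AAV8-TBG-Cre livers. It rose by 1.69 (SE 0.42) without overlap, most in AAV8-TBG-Cre replicate 2. The leukocyte adhesion molecules Icam1 (0.94, SE 0.23) and Vcam1 (0.96, SE 0.30) rose too, without overlap. Plvap, the diaphragm protein of endothelial pores, was called lower at -0.46 (SE 0.16), a call lost without AAV8-TBG-GFP replicate 1, AAV8-TBG-GFP replicate 2 or AAV8-TBG-Cre replicate 1 (log2 fold change -0.36 to -0.41). None of the 4 passed the adjusted rule in edgeR, and 3 genes of the list did in DESeq2. Per count of Pecam1, Cd34 was at 0.101, 0.0615 and 0.135 in AAV8-TBG-GFP livers and at 0.226, 0.639 and 0.285 in AAV8-TBG-Cre livers.

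Among 15 scavenger and Fc receptor genes, 5 were called higher and 2 lower, and 4 of the 5 were activating Fc receptors or their chain. Of all genes, 12.0% were called higher and 8.41% lower. Leaving out single livers gave 1 to 3 of the 15 lower, beside 735 to 1712 of all genes. Of the 15 genes, 1 passed the adjusted rule in edgeR and 5 did in DESeq2. In edgeR 6 passed it without AAV8-TBG-Cre replicate 1 and 0 without any other single liver. Fcgr3 stood at 6.71, 7.65 and 5.71 CPM in AAV8-TBG-GFP livers and at 12.8, 20.9 and 11.7 CPM in AAV8-TBG-Cre livers. It rose by 1.18 (SE 0.24), Fcgr1 by 1.21 (SE 0.27), Fcgr4 by 0.89 (SE 0.19) and their shared signalling chain Fcer1g by 0.96 (SE 0.22), each without overlap and on the unadjusted rule. Per count of Fcgr2b, Fcgr3 was at 0.209, 0.220 and 0.313 in AAV8-TBG-GFP livers and at 0.512, 0.752 and 0.588 in AAV8-TBG-Cre livers. The log2 ratio to Fcgr2b was higher in AAV8-TBG-Cre livers by 1.32 for Fcgr3, 1.35 for Fcgr1, 1.07 for Fcgr4 and 1.10 for Fcer1g. Each of these had an exact permutation p of 0.1, the smallest possible, and 0.113 after adjustment over the 9 ratios compared, which were chosen after the values were seen. Fcgr2b and Fcgr3 share sequence, 166 of 1554 windows of 50 bases (10.7%) in Fcgr2b transcripts of GENCODE vM1 occurring in Fcgr3 as well, so reads there could be divided between them by the authors' counting. No window was shared with Fcgr1 or Fcgr4.

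Msr1, the macrophage scavenger receptor, was the fifth gene of that list called higher, at 0.77 (SE 0.22). The 2 called lower were Cd163, the haemoglobin scavenger receptor of macrophages, and Colec12, a scavenger collectin. Cd163 stood at 7.57, 5.36 and 4.82 CPM in AAV8-TBG-GFP livers and at 1.62, 1.07 and 1.15 CPM in AAV8-TBG-Cre livers, and fell by 2.21 on the log2 scale (SE 0.28, edgeR adjusted p = 0.0330). Its adjusted p lay between 0.0586 and 0.118 in edgeR without each liver in turn, except without AAV8-TBG-Cre replicate 1 (0.0210). Colec12 fell by 0.43 on the log2 scale (SE 0.16), a call lost without AAV8-TBG-GFP replicate 3, AAV8-TBG-Cre replicate 2 or AAV8-TBG-Cre replicate 3 (log2 fold change -0.32 to -0.39).

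**Figure D4:**
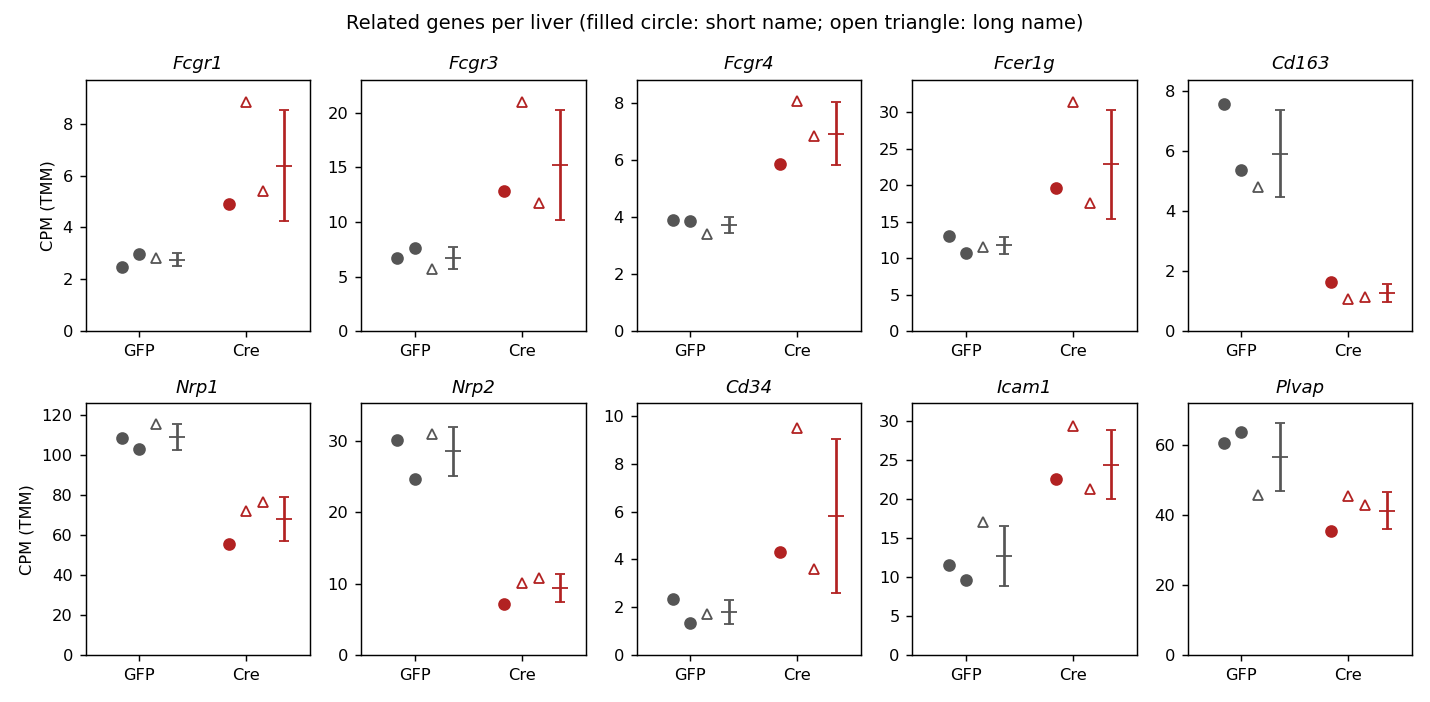
CPM of activating Fc receptor genes, Cd163, neuropilins and capillary-type genes in AAV8-TBG-GFP (GFP, grey) and AAV8-TBG-Cre (Cre, red) livers, 1 point per liver with the mean and SD (n = 3); filled circles are 2-digit and open triangles 4-digit libraries. The Fc receptor genes, Cd34 and Icam1 are higher and Cd163, Nrp1, Nrp2 and Plvap lower in every AAV8-TBG-Cre liver, and AAV8-TBG-GFP replicate 3 does not stand below its group for Nrp1 or Nrp2.

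Bmp2 was not called. Of 20 other genes from BMP ligands to hepcidin, 4 were called higher and none lower on the unadjusted rule. Of all genes, 12.0% were called higher and 8.41% lower. None of the 20 passed the adjusted rule in edgeR, where 5 had an unadjusted p under 0.05, and 2 did in DESeq2. The 4 calls compare with 7 higher without AAV8-TBG-GFP replicate 2, 2 higher without AAV8-TBG-Cre replicate 2, and 2 higher and 2 lower without AAV8-TBG-GFP replicate 3. Over all genes, 1262 of 13763, 1108 of 13527 and 1469 of 13762 were called higher in these fits, in the same order. Without AAV8-TBG-GFP replicate 3, 7.88% of all genes were called lower. Id1, an immediate BMP target, stood at 6.56, 8.32 and 3.19 CPM in AAV8-TBG-GFP livers and at 12.1, 15.0 and 12.3 CPM in AAV8-TBG-Cre livers. It rose by 1.12 (SE 0.31) without overlap. Hamp2, the second hepcidin gene, rose by 1.89 (SE 0.49), from 25.7, 17.5 and 10.5 CPM to 118, 44.9 and 36.6 CPM. The BMP targets Atoh8 (0.56, SE 0.23) and Smad7 (0.51, SE 0.21) were called higher, but both calls were lost without AAV8-TBG-GFP replicate 1, AAV8-TBG-GFP replicate 3, AAV8-TBG-Cre replicate 2 or AAV8-TBG-Cre replicate 3 (log2 fold change 0.30 to 0.53).

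Bmp6, the other endothelial ligand that controls hepcidin, stood at 4.12, 3.77 and 2.15 CPM in AAV8-TBG-GFP livers and at 5.54, 6.41 and 4.04 CPM in AAV8-TBG-Cre livers. Its log2 fold change of 0.67 did not pass the test (interval -0.01 to 1.35), and that of Hamp, hepcidin itself, was 0.92 (interval -0.03 to 1.88). Hamp varied widely within the control group, at 246, 612 and 203 CPM, against 739, 504 and 770 CPM in AAV8-TBG-Cre livers. Id1 per Bmp2 count was higher in every AAV8-TBG-Cre liver, by 1.43 on the log2 scale, and Bmp6 per Bmp2 count by 0.91 (exact permutation p = 0.1 for each, 0.113 adjusted over 9 ratios). The log2 fold changes of the list had a median of 0.19, beside -0.01 for all genes.

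**Figure D5:**
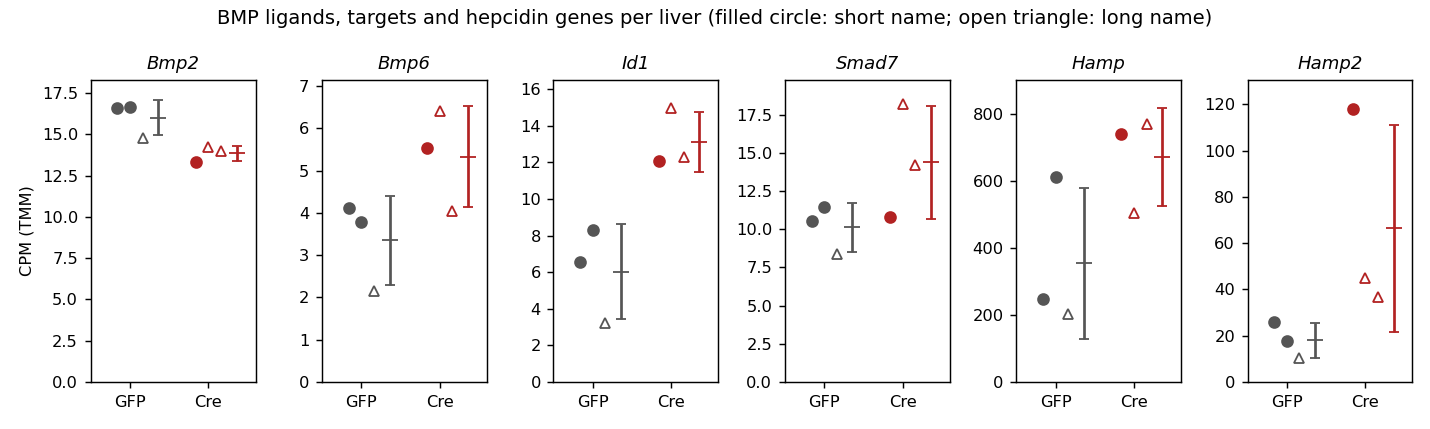
CPM of the ligands Bmp2 and Bmp6, the targets Id1 and Smad7 and the hepcidin genes Hamp and Hamp2 in AAV8-TBG-GFP (GFP, grey) and AAV8-TBG-Cre (Cre, red) livers, 1 point per liver with the mean and SD (n = 3); filled circles are 2-digit and open triangles 4-digit libraries. Bmp2 is lower and Id1 and Hamp2 are higher in every AAV8-TBG-Cre liver, while Bmp6, Smad7 and Hamp overlap.

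Transcripts could be compared within 2 of the 10 genes. Fcgr2b had 2 RefSeq transcripts, of which NM_010187 held between 93.0% and 97.8% of the expected counts in every library. Its share was 94.3% ± 1.05 in AAV8-TBG-GFP livers and 95.7% ± 2.45 in AAV8-TBG-Cre livers (SD, n = 3 each, exact permutation p = 0.5, 0.75 adjusted over 6 transcripts). The 4 Pecam1 transcripts had shares that scattered within groups, NM_008816 for example taking 41.2%, 36.3% and 24.9% in AAV8-TBG-GFP livers and 40.3%, 1.84% and 0% in AAV8-TBG-Cre livers. A transcript of Pecam1 listed at 0 beside others in the same library may be an estimate that failed, and no transcript's share differed beyond the spread between livers (smallest exact permutation p = 0.3, 0.75 adjusted). The other 8 genes had a single transcript in the files.

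Markers of other cell types in the same livers moved as follows, beside 12.0% of all genes called higher and 8.41% called lower. All 9 cholangiocyte markers were called higher (median log2 fold change 2.39), with a summed level of 73.6 to 130 CPM in AAV8-TBG-GFP livers and 312 to 588 CPM in AAV8-TBG-Cre livers. Macrophage and Kupffer cell markers had 6 of 9 called higher (213 to 244 CPM against 308 to 416 CPM), and stellate cell and fibroblast markers 5 of 10 (257 to 392 CPM against 495 to 1041 CPM). Of 4 tested neutrophil markers 3 were higher and 1 lower (10.1 to 10.6 CPM against 14.0 to 16.8 CPM). Hepatocyte markers had 1 of 9 higher and 1 lower (99748 to 118613 CPM against 84202 to 104566 CPM). The 10 sinusoidal genes summed to 204 to 326 CPM against 212 to 273 CPM, and no marker of the hepatocyte, macrophage, stellate cell, cholangiocyte or sinusoidal lists was at 0 in any library. Lymphatic endothelium, which also expresses Flt4, Lyve1 and Pecam1, had none of 2 tested markers called (68.8 to 85.7 CPM against 68.3 to 72.1 CPM, mostly of Prox1, which hepatocytes express too), and Pdpn was at 0 in at least 1 library. B cells (1 of 1 tested marker higher, 1.33 to 1.47 CPM against 1.59 to 3.96 CPM), T and NK cells (1 of 2, 1.52 to 2.30 CPM against 2.10 to 5.18 CPM) and platelets (0 of 3, 3.09 to 3.71 CPM against 3.20 to 3.82 CPM) were scarce. The part of these cells in the values of Fcgr2b, Cd34, Icam1, Vcam1, Nrp1, Nrp2, the activating Fc receptors and the 10 sinusoidal genes was not tested.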

How the data were processed

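RNA from 6 livers was sequenced, and livers were grouped by the vector in the labels. The authors deposited, for each liver, an expected count per transcript (an estimate that need not be whole, without normalization; 45.4% were whole). FPKM values per transcript and per gene were made by the authors by scaling for length and mapped fragments, and were deposited as such. The submitters' processing notes name HISAT2, Bowtie2, RSEM and mm10, and the methods name STAR, HTSeq and DESeq2; versions are not given in the sources used here. How fragments shared between near-identical genes were divided can change the levels of those genes.

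Expected counts were summed per NCBI gene ID and rounded. Of 18453 genes, 18409 matched the RefSeq table (GRCm38.p6), which gave positions. No pair within a group agreed to within sampling noise (lowest chi-square over the genes, 26.5 per gene). Vectors were compared over all genes by quasi-likelihood in edgeR 4.0.16 (R 4.3.3, TMM, filterByExpr) with Benjamini-Hochberg adjustment and 95% intervals. Steps were tested on simulated data. Alternatives were DESeq2 1.42.0, limma 3.58.1 on log2(FPKM + 1) or log2(FPKM + 0.1) with and without a minimum of 0.5 FPKM in 3 libraries, other scalings, filters, a fold of 1.5, a replicate block, the library name's form as covariate, and leaving out each liver. log2 CPM used a prior count of 2.

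The genes, lists and tests were chosen with earlier results of these data known. Named are the 10 genes, Mettl14, at most 4 called genes per list with the smallest p, a fixed set (Cdh5, Gpr182, Gata4, Vegfa, Bmp6, Hamp, Id1, Wnt2, Rspo3, Cd34, Klf2, Fcgr3) and the 5 nearest profiles. Fcer1g, Msr1, Colec12, Nos3 and Klf4 were named after their values were seen. The comparison by the library name's form and the ratios between genes were added then too. An interaction of vector and form was also fitted and is not reported, since each form has a single liver for 1 vector.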

Additional observations from a re-analysis of the deposited data

How the results depend on the processing

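The direction and the side of the threshold of the 10 fold changes were the same in 136 of 160 pairs of a gene and an alternative fit. Stab1 turned above 0 in 8: 0.0057 with upper quartile normalization, 0.10 with the library name's form as covariate, 0.12 on log2(FPKM + 1) with and without the filter, 0.14 on log2(FPKM + 0.1), 0.01 and 0.11 without AAV8-TBG-GFP replicates 1 and 2, and 0.04 without AAV8-TBG-Cre replicate 3, in a leave-one-out range from -0.28 to 0.11. Flt4 turned below 0 without AAV8-TBG-GFP replicate 3 (-0.18) and AAV8-TBG-Cre replicate 1 (-0.43), in a range from -0.43 to 0.33. The median of all genes moved to 0.11 on log2(FPKM + 1) and 0.14 on log2(FPKM + 0.1); relative to it, the median of the 10 genes was -0.15 and -0.18, and 8 of the 10 were below it.

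Sinusoidal genes called lower numbered 2 with DESeq2, without the filter on low counts and with the replicate block (Stab2 and Oit3 in each). Beside them, 1206 of 18416 genes were called lower with DESeq2, 1296 of 18419 without the filter and 1093 of 13431 with the replicate block. The number was 0 with upper quartile normalization, with limma on FPKM at either pseudocount or without the filter, and at a fold of 1.5. With the library name's form as covariate 1 was called higher. Leaving out single livers gave 0 to 6 called lower, 0 called higher, and a median log2 fold change from -0.43 to -0.16. The median lay closer to 0 with the library name's form as covariate (-0.13) and in the limma fits (-0.04 on log2(FPKM + 1), -0.05 on log2(FPKM + 0.1)). Of all 13431 genes tested, 1129 were called lower, against 737 with upper quartile normalization and 407 at a fold of 1.5. The limma fits called 365 of 12138 on log2(FPKM + 1), 376 of 12138 on log2(FPKM + 0.1) and 364 of 18453 on log2(FPKM + 1) without filter. Without single livers 735 to 1712 genes were called lower. The adjusted rule passed 125 genes, against 1157 with DESeq2, 372 without the filter, 214 with the form of the library name, 76 at 10 counts in every library, 66 with upper quartile normalization, 22, 27 and 9 in the limma fits in the same order, 7 with the replicate block, and 0 to 928 without single livers. Of the lists of related genes, leaving out the cell type markers, 5 genes were called lower and 12 higher in the main fit. Those called lower were 3 in each limma fit and at a fold of 1.5 and 4 to 21 without single livers. The 21 came without AAV8-TBG-GFP replicate 3, the liver picked for its low values in the 10 genes. Those called higher were 19 in the limma fits with the filter and 10 to 15 without single livers. The cause of these shifts was not tested.

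Same-numbered livers did not deviate together (correlations of deviations 0.01, -0.26 and 0.21), nor did every liver correlate best with its own number, so the replicate number is not a pairing here. With 3 livers per group only the 95% interval of Stab2 (-0.55 to -0.09) left out 0, and the widest, that of Flt4, ran from -0.82 to 1.00.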
